A study of Mus musculus with 9 samples.

Results

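Every microRNA (miRNA) is cut to a preferred 5′ end, and reads that begin a few nucleotides upstream or downstream of it are called 5′-shifted isomiRs. The data described here are the 120 shifted 5′ starts among the 414 miRNA entries that the study lists at 100 or more reads per 1000000 mapped reads (RPMM) in at least 1 library of a cell type or tissue. Among these entries the members were taken by name, those with a shift suffix, and each was paired with the entry of the same miRNA without a suffix, here its reference. The MIN6 list holds 90 of them among 358 entries, the liver list holds 49 among 178, and 19 are in both. A start that reached 100 RPMM with 1 protocol only is a member because it was high there, so its direction against the other protocols was partly fixed by the listing. The 120 starts share 88 references, since several miRNAs have more than 1 shifted start. For 13 of them the reference itself was too low to be listed, and its position was then set from the shift in the name.

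The study compared small RNA library preparation protocols, which join adapters to both ends of short RNAs before they are reverse transcribed, amplified and sequenced. Illumina v1.5 and TruSeq each use adapters of 1 fixed sequence, and Bioo Scientific NEXTflex V2 uses a pool whose ends at the ligation site are random bases. MIN6 is a mouse insulinoma line that resembles pancreatic beta cells, grown here in high glucose (25 mM) with 10% heat-inactivated serum. It gave 3 TruSeq and 3 v1.5 libraries, both sequenced on the GAIIx at 1 facility, and 1 NEXTflex library sequenced on the HiSeq at another facility from other RNA and at a later date. Liver came from 1 female C57BL/6J mouse, bought at 9 weeks of age, injected with saline through the tail vein and killed 7 days later after an overnight fast. Its RNA was made into 1 TruSeq and 1 NEXTflex library, both sequenced on the HiSeq. The TruSeq MIN6 libraries that were run on the HiSeq are not analysed here. In MIN6 cells NEXTflex therefore differs from the other protocols in RNA, platform, facility and date as well as in preparation, and between TruSeq liver and TruSeq MIN6 the platform differs along with the tissue. These factors cannot be told apart.

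A miRNA guides a silencing complex to messenger RNAs, and it finds them mainly through its seed, the bases from position 2 to position 8 counted from the 5′ end. The enzymes Drosha and Dicer set that end: Drosha cuts the primary transcript and so fixes the 5′ end of the 5p arm, and Dicer cuts the hairpin and fixes the 5′ end of the 3p arm. A start moved by a single nucleotide gives a different seed and with it a different set of possible targets, whereas changes at the 3′ end leave the seed as it is. In what follows (+1) marks a start 1 nt downstream of the reference, which shortens the miRNA at its 5′ end, and (-1) a start 1 nt upstream, which lengthens it. The shifted share is the percentage of reads at the shifted start among the reads at that start and at its reference.

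The sequences of the members that carry the main differences are printed 5′ to 3′, in lower case with the seed in capitals, from the RefSeq miRNA hairpins of mouse build GRCm38.p6. Each runs to the commonest read end at its start. miR-375, an abundant miRNA of islet cells that limits insulin secretion, is shown because its 2 main shifted starts were the most abundant of all in the TruSeq MIN6 libraries. miR-375-3p(-1) lies at chr1:74900661-74900683 (- strand).
miR-375-3p: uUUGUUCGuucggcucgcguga
miR-375-3p(-1): uUUUGUUCguucggcucgcguga
miR-375-3p(+1): uUGUUCGUucggcucgcguga
The let-7 family, known for its part in growth control and differentiation, is shown by let-7c-2 because the seed of its downstream start, AGGUAGU, is that of another family. let-7c-2-5p(+1) lies at chr15:85706617-85706637 (+ strand).
let-7c-2-5p: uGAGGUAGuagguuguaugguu
let-7c-2-5p(+1): gAGGUAGUagguuguaugguu
miR-7a, an islet miRNA that dampens insulin secretion, is shown for its starts 1 nt and 4 nt downstream, which were listed through different protocols. The first was listed only through NEXTflex and the second only through v1.5, which fixed their opposite order between these protocols in part. miR-7a-1-5p(+4) lies at chr13:58392840-58392859 (- strand).
miR-7a-1-5p: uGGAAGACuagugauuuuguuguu
miR-7a-1-5p(+1): gGAAGACUagugauuuuguuguu
miR-7a-1-5p(+4): aGACUAGUgauuuuguuguu
miR-29b, a repressor of collagen and other matrix genes, is shown because its start 2 nt downstream had reads in the v1.5 libraries and in no other. miR-29b-1-3p(+2) lies at chr6:31063025-31063045 (- strand).
miR-29b-1-3p: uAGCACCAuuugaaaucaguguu
miR-29b-1-3p(+2): gCACCAUUugaaaucaguguu
miR-136, miR-101b and miR-483 are shown because the shifted start outnumbered the reference in some libraries. miR-136-3p(-1) lies at chr12:109595365-109595386 (+ strand) in the imprinted Dlk1-Dio3 cluster, miR-101b-3p(-1) at chr19:29135338-29135358 (+ strand) and miR-483-3p(+1) at chr7:142654930-142654951 (- strand).
miR-136-3p: aUCAUCGUcucaaaugagucu
miR-136-3p(-1): cAUCAUCGucucaaaugagucu
miR-101b-3p: uACAGUACugugauagcugaag
miR-101b-3p(-1): gUACAGUAcugugauagcuga
miR-483-3p: uCACUCCUccccucccgucuugu
miR-483-3p(+1): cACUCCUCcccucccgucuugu
miR-142, a miRNA of blood cells, is shown for its start 2 nt upstream in liver, and miR-26a-1 because the first base of many of its upstream reads differed from the genome. miR-142-5p(-2) lies at chr11:87756865-87756886 (+ strand) and miR-26a-1-5p(-1) at chr9:119031810-119031832 (+ strand).
miR-142-5p: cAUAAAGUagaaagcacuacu
miR-142-5p(-2): cCCAUAAAguagaaagcacuac
miR-26a-1-5p: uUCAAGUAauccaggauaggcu
miR-26a-1-5p(-1): gUUCAAGUaauccaggauaggcu

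Sequence could be read for 94 of the 120 members, and the other 26 are reported by name only. Among the 94 there were 72 distinct shifted seeds. For 17 members the shifted seed was also the seed of another RefSeq mouse miRNA, and these fell into 8 seeds. The largest set was the 9 downstream starts of the let-7 family, whose shifted seed AGGUAGU is that of miR-196a-5p and miR-196b-5p, miRNAs encoded within the Hox clusters. The downstream starts of miR-30a-5p and miR-30e-5p had the seed UAAACAU of miR-30f, and miR-101a-3p(-1) had the seed UACAGUA of miR-101b-3p as RefSeq records it. The other 5 pairings were miR-101b-3p(+1) with miR-101c, miR-142-5p(-2) with miR-142b, miR-342-3p(+2) with miR-672-3p, miR-22-3p(+1) with miR-3966 and miR-21-5p(+1) with miR-3965. Of the 88 members with a RefSeq mature entry on their arm, 85 had a reference at its 5′ end. For miR-101b-3p(-1) and miR-337-5p(+3) it was the shifted start that lay there.

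The shifts were mostly of a single nucleotide. In MIN6 cells 69 of the 90 were at (-1) or (+1), with 53 downstream and 37 upstream, and in liver 37 of the 49 were. The 5p arm gave 49 of the MIN6 members and the 3p arm 40, while the miR-5099 entry names no arm. A reference in MIN6 began with U in 30 of the 47 downstream pairs and in 20 of the 33 upstream pairs with sequence, whereas the shifted start began with U in 13 and 7 of them. G was the first base of 18 downstream and 11 upstream shifted starts, against 4 and 4 of their references. The 18 include the 9 downstream starts of let-7 and the 3 (+1) starts of miR-7, most of them listed only through NEXTflex. Several of these are copies that share reads. A 5′ U is the base that the silencing proteins are known to hold best.

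The libraries held between 6644520 and 25566100 mapped reads by the study's count. miR-375-3p, the beta-cell marker, was between 64950 and 186331 RPMM in MIN6 and at 39.97 and 26.7 RPMM in liver, and miR-122-5p, the hepatocyte marker, was at 17244 RPMM in TruSeq liver and 532452 RPMM in NEXTflex liver. Markers of blood cells, endothelium and stroma were present in liver, with miR-142-5p at 3777 and 27.7 RPMM in the TruSeq and NEXTflex libraries. In the NEXTflex MIN6 library miR-122-5p was at 127.7 RPMM, against at most 2.38 RPMM in the 6 other MIN6 libraries, and in the NEXTflex liver library miR-7a-1-5p was at 372 RPMM, against 3.37 RPMM in TruSeq liver. The NEXTflex libraries also held fewer distinct sequences: 17.6% and 16.9% of their exact alignments of 20 nt or more were seen once, against 72.6% to 80.4% in the other 7.

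Summed over all 90 MIN6 members, the shifted share was nearly the same with TruSeq and v1.5, but the arms differed. It was 3.44% ± 0.00747 (SD, n = 3 here and below) with TruSeq, 3.57% ± 0.0639 with v1.5 and 2.55% in the single NEXTflex library. On the 5p arm the summed share was 2.99% ± 0.0650 with TruSeq, 1.82% ± 0.0167 with v1.5 and 1.44% with NEXTflex. On the 3p arm the order was the reverse, 3.61% ± 0.0458 with TruSeq, 5.96% ± 0.0433 with v1.5 and 8.19% with NEXTflex. The TruSeq and v1.5 libraries did not overlap on either arm, and these sums were not tested. A sum weights each miRNA by its abundance, and miR-375-3p made up much of the 3p total; without it the 3p shares were 3.56%, 6.65% and 12.2%. The median over the members of an arm had another order on the 5p arm. It was 0.951%, 1.67% and 1.08% there and 5.93%, 6.40% and 6.86% on the 3p arm.

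**Figure D1:**
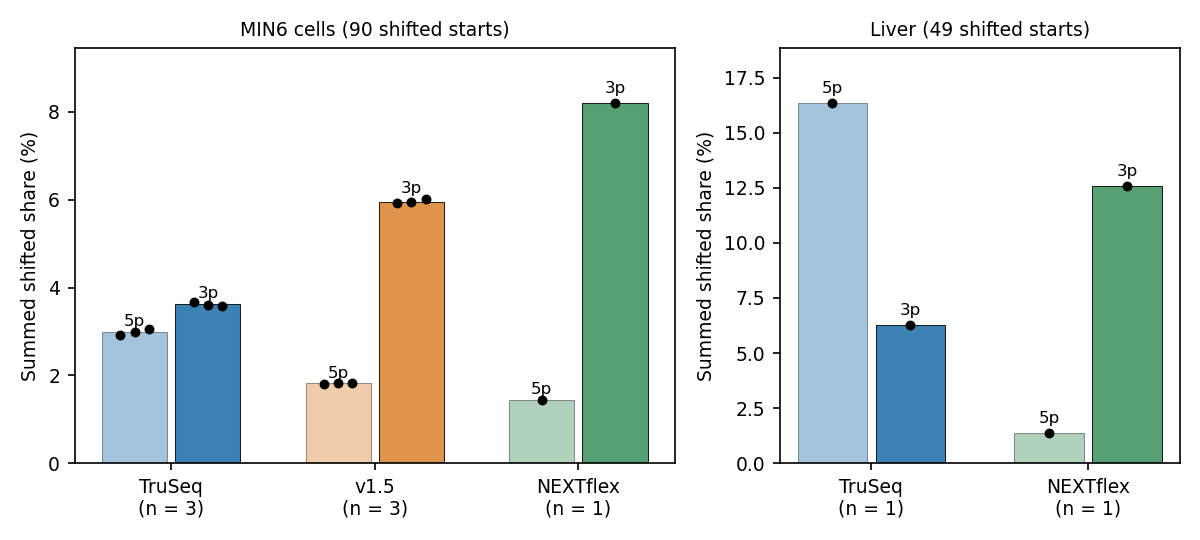
Summed shifted share (%) of the 5p-arm members (light bars) and the 3p-arm members (dark bars) by protocol, in MIN6 cells (left) and in liver (right). Bars are means and points are libraries; in MIN6 the 5p share was 2.99% with TruSeq and 1.44% with NEXTflex and the 3p share 3.61% and 8.19%, and in liver the 5p share was 16.3% with TruSeq and 1.37% with NEXTflex.

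The only comparison with replicates on both sides was v1.5 against TruSeq in MIN6 cells, which asks whether the protocol changes the 5′ ends measured in the same kind of cell. The shifted share changed for 64 of the 84 members that passed the filter on low counts, 31 higher and 33 lower with v1.5 (edgeR quasi-likelihood test, adjusted p under 0.05). All starts within 8 nt of a MIN6 reference, tested in the same fit, changed in 62.4% of cases, 31.0% higher and 31.5% lower. The members' median log2 change was 0.03, against 0.09 for all starts. Of the 31 higher members 12 reached 100 RPMM in MIN6 only with v1.5, and of the 33 lower ones 5 did so only with TruSeq, so that nothing is read from the counts of members. The p-values measure the spread between these libraries only, which the study calls biological replicates. Not every change of share was large: miR-375-3p(-1) was called at 2.13, 2.12 and 2.11% with TruSeq and 1.98, 2.05 and 2.02% with v1.5 (log2 change -0.07, SE 0.0141, adjusted p = 0.00305). The 6 members under the filter were the upstream starts of miR-7a-1, miR-7a-2 and miR-7b, those of miR-669m-1 and miR-669m-2, and miR-669o-5p(+1).

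**Figure D2:**
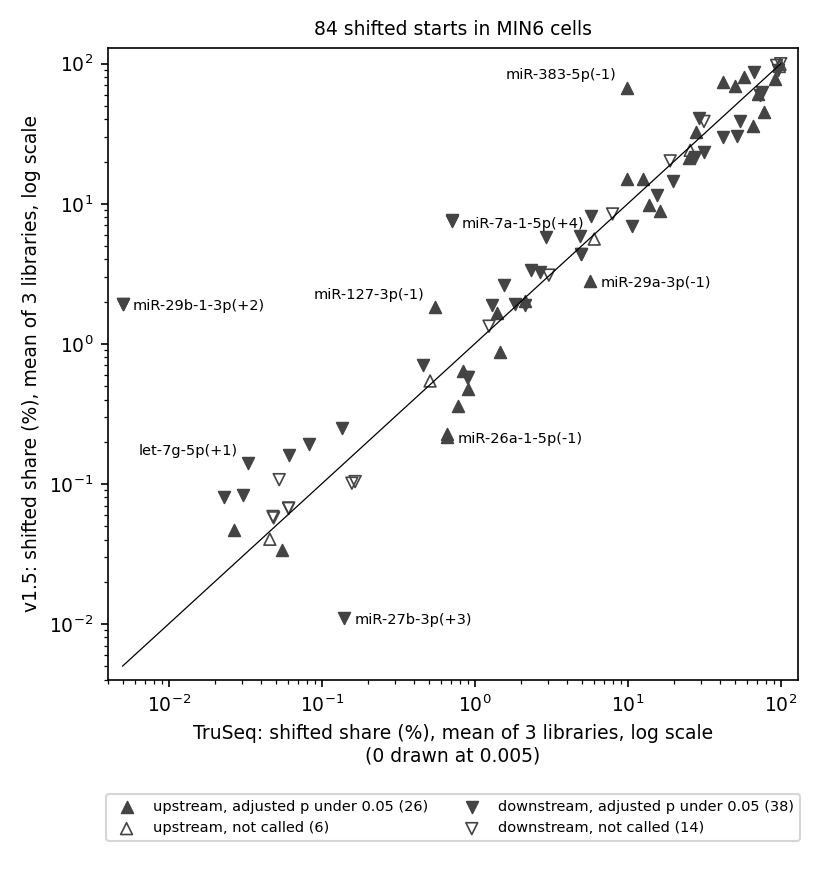
Shifted share (%) of the 84 tested MIN6 members with TruSeq (horizontal axis) and v1.5 (vertical axis), each the mean of 3 libraries on a log scale; the line marks equal shares and a share of 0 is drawn at the left edge. Filled triangles passed the test, pointing up for upstream and down for downstream starts; miR-29b-1-3p(+2), at 0 with TruSeq and 1.94% with v1.5, and miR-27b-3p(+3), at 0.140% and 0.0110%, lie farthest from the line.

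Called members are described next by the size of their change of share. Those listed only through the protocol where they were high are described without a test, since the listing fixed their direction in part. miR-29b-1-3p(+2) had no read in the TruSeq libraries, nor in NEXTflex or either liver library, and 101, 97.02 and 79.8 RPMM with v1.5, the only protocol through which it was listed, a share of 1.93% ± 0.111. Against the floor of 3 counts over the TruSeq group its share was at least 25.02-fold higher. Its copy miR-29b-2-3p(+2) rests on the same reads, since both precursors give the same mature miRNA, and was at least 25.3-fold higher. The reference was seen in every library, at 166, 145 and 148 RPMM with TruSeq and 5054, 4709 and 4344 RPMM with v1.5.

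miR-7a-1-5p(+4) made up 0.598, 0.732 and 0.786% of its pair in the 3 TruSeq libraries and 8.74, 7.20 and 6.51% in the 3 v1.5 libraries, and it too was listed only through v1.5. Its log2 change was 3.38, and the copy miR-7a-2-5p(+4) had a log2 change of 3.40 on reads shared with it. miR-383-5p(-1), from a miRNA of brain and endocrine tissue, rose from 6.73, 12.5 and 10.3% to 66.4, 67.4 and 68.3% (log2 change 2.78, SE 0.161, adjusted p = 3.95e-06). With v1.5 all 3 libraries had more reads at this start than at the reference, and with TruSeq none did. The reference moved the opposite way, from 307, 234 and 295 RPMM to 113, 113 and 129.7 RPMM.

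The 5 called members with the lowest log2 change with v1.5 follow. miR-27b-3p(+3), from a miRNA known in lipid metabolism and vessel growth, went from 0.169, 0.140 and 0.110% to 0.0112, 0.0112 and 0.0108% (log2 change -3.65), and had no read in NEXTflex. It and both miR-26a starts were listed only through TruSeq. miR-26a-1-5p(-1) went from 0.656% ± 0.0184 to 0.215% ± 0.0170 (log2 change -1.61), and its copy miR-26a-2-5p(-1) from 0.657% to 0.225%. In each TruSeq library at least 99.93% of the reads at the start of miR-26a-1-5p(-1) had a first base other than the genome's, so that over alignments without a mismatch its share was 0, 0 and 0.000499%. miR-141-3p(-1), from the miR-200 family that keeps epithelial cells epithelial, fell from 0.780% ± 0.0563 to 0.358% ± 0.0238. miR-29a-3p(-1) fell from 5.73, 5.87 and 5.46% to 2.64, 2.85 and 2.91% (log2 change -1.02, SE 0.0446, adjusted p = 9.19e-07). For these last 2 starts fewer than 1% of the reads had a mismatching first base in either group, although for miR-141-3p(-1) 88.9% did in NEXTflex.

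By direction, 10 of the 32 tested upstream starts were higher with v1.5 and 16 lower, with a median log2 change of -0.17, and of the 52 downstream starts 21 were higher and 17 lower, with a median of 0.13. By arm, 15 of 43 were higher and 14 lower on the 5p arm, and 16 of 40 higher and 19 lower on the 3p arm. Over all starts 31.0% were higher and 31.5% lower, and nothing is read from these counts.

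The level of the shifted starts in RPMM was tested beside that of all listed entries. Of the 90 members 79 changed in level, 52 higher and 27 lower with v1.5, against 92.5% of all 358 entries (56.1% higher and 36.3% lower). The median log2 change was 0.81 over the members and 0.68 over all entries. With TMM factors the median of all entries was 0.14 and the members split 45 higher and 37 lower, so that a direction of level is relative to the scaling, whereas the share is not. miR-136-3p(-1) fell in level from 951, 969 and 954 RPMM to 113, 113 and 119 RPMM (log2 change -3.06, SE 0.0512, adjusted p = 2.1e-12). Its reference fell less, from 281, 279.7 and 256 RPMM to 139, 139.7 and 138 RPMM, and its share went from 77.9% ± 0.872 to 45.3% ± 0.956. miR-127-3p(-1) changed the other way in share than in level: its level went from 177, 175 and 186 RPMM to 96.4, 112 and 122.1 RPMM (log2 change -0.71) and its share rose from 0.547% ± 0.0204 to 1.83% ± 0.0998 (log2 change 1.74). Over alignments without a mismatch its share rose less, from 0.206, 0.185 and 0.184% to 0.371, 0.383 and 0.433%.

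Among endocrine and epithelial miRNAs 8 of 15 tested members were higher in share with v1.5 and 6 lower, against 31.0% and 31.5% of all starts. Of the higher ones miR-141-3p(+1) and both copies of miR-29b-3p(+2), which share reads, were listed only through v1.5. Their direction was fixed in part by the listing, and nothing is read from these counts. miR-375 had 3 shifted starts that did not move together. Its downstream starts rose: miR-375-3p(+1) went from 1.56, 1.48 and 1.59% to 2.65, 2.61 and 2.60% (log2 change 0.76, SE 0.0254, adjusted p = 3.49e-07), and miR-375-3p(+2) from 0.0832% ± 0.00357 to 0.191% ± 0.00400. The upstream start, at 2.12% and 2.02%, changed by far less. In reads, miR-375-3p(-1) was the most abundant shifted start with TruSeq, at 3556, 4027 and 3766 RPMM, and miR-375-3p(+1) was above it with v1.5, at 1978, 2153 and 2331 RPMM against 1473, 1680.4 and 1800.5 RPMM. In NEXTflex they were at 2038 and 1604 RPMM, in the order seen with v1.5.

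miR-183-5p(+1), from a cluster of sensory and neuroendocrine cells, held 27.1, 27.1 and 28.6% of its pair with TruSeq and 21.5, 21.6 and 21.9% with v1.5, a fall of small size (log2 change -0.35, SE 0.0226, adjusted p = 6.91e-06). Its level was 2571, 2757 and 2816 RPMM, 1625, 1628 and 1784 RPMM and, in NEXTflex, 48.6 RPMM. The NEXTflex level was thus far below the others, with a share of 19.5%. From the same cluster miR-182-5p(+1) rose from 0.0612% ± 0.00689 to 0.160% ± 0.0219 and was at 0.798% in NEXTflex. miR-141-5p(-2) rose from 41.99, 43.5 and 40.7% to 74.3, 73.5 and 74.3% (log2 change 0.82, SE 0.0316, adjusted p = 6.29e-07), and the shifted start was the larger of the pair with v1.5 and the smaller with TruSeq.

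Of the 13 tested members of the imprinted Dlk1-Dio3 cluster, a large group of miRNAs active in brain and endocrine cells, 4 were higher in share and 6 lower with v1.5, against 31.0% and 31.5% of all starts. In level 4 rose and 8 fell, against 56.1% and 36.3% of all entries. One of the higher members, miR-369-3p(-1), was listed only through v1.5, and nothing is read from these counts. Besides miR-136-3p(-1), miR-127-5p(+2) fell from 53.4, 50.7 and 51.4% to 31.3, 30.4 and 28.95% and stood at 70.9% in NEXTflex. miR-376a-5p(+1) rose from 67.2% ± 0.396 to 86.6% ± 0.445 and had no read in NEXTflex among 697 reads at the pair. By counting error alone that allows a share of up to 0.430%. The miR-409-3p starts went opposite ways, with (-1) higher (log2 change 0.22) and (+1), listed only through TruSeq, lower (log2 change -0.45).

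The let-7 family had 14 members in MIN6, all tested, and their shares were low. The downstream starts, which carry the miR-196 seed, lay between 0.0230% and 0.0608% in the TruSeq means, apart from let-7c at 0.892% and 0.898% for its copies. With v1.5 let-7b-5p(+1), let-7g-5p(+1) and let-7i-5p(+1) were higher, and both copies of let-7c-5p(+1) were lower. let-7g-5p(+1) went from 0.0133, 0.0347 and 0.0512% to 0.107, 0.157 and 0.159% (log2 change 1.95, SE 0.353, adjusted p = 0.00198). let-7c-2-5p(+1) went from 0.917, 0.934 and 0.825% to 0.599, 0.600 and 0.544% (log2 change -0.61, SE 0.0614, adjusted p = 7.5e-05). In share 5 of the 14 were higher and 4 lower, against 31.0% and 31.5% of all starts. The lower ones include let-7f-1-5p(-1), at -0.68 on the log2 scale, which turned to 2.15 when only whole-number counts were used. All 14 rose in level with v1.5 by mapped reads, against 56.1% of all entries, though let-7i-5p(+1) by only 0.55 on the log2 scale and with the other sign under DESeq2 size factors. No let-7 member reached 100 RPMM with TruSeq, so for those listed through v1.5 this direction was fixed in part by the listing. Copies also share reads, and nothing is read from the counts of this family. Of the v1.5 reads at let-7f-1-5p(-1) and let-7c-2-5p(-1) 99.5% and 98.1% had a first base other than the genome's, and with exact alignments the level of let-7c-2-5p(-1) went from 2.73 to -0.0374 on the log2 scale and that of let-7f-1-5p(-1) no longer passed the test. let-7b-5p(-1) had no exact read in the 6 GAIIx libraries.

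In the NEXTflex MIN6 library the share of each of the 9 let-7 downstream starts was above that in all 6 GAIIx libraries, from 0.545% to 1.49%. However, 7 of the 9 reached 100 RPMM in MIN6 only with NEXTflex and let-7c with NEXTflex and v1.5, so a high share there was fixed in part by the listing, and nothing is read from the count. let-7b-5p(+1) had 0.828, 1.75 and 1.54 RPMM with TruSeq, 8.67, 10.3 and 8.56 RPMM with v1.5 and 410.1 RPMM with NEXTflex, shares of 0.0305%, 0.0828% and 0.886%. In liver, where let-7b-5p(+1) and both copies of let-7c-5p(+1) were likewise listed only through NEXTflex, let-7b-5p(+1) was at 0.00842% with TruSeq and 0.669% with NEXTflex. let-7i-5p(+1) was at 0.0250% and 0.00855% there. The copies of let-7a, let-7c and let-7f share reads and are not separate observations.

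In the miR-7 family the (+1) and (-1) starts were listed only through NEXTflex and the (+4) starts only through v1.5, so their order between protocols is given as a description. miR-7a-1-5p(+1) was at 0.828, 0.678 and 0.789 RPMM with TruSeq, 2.63, 2.51 and 2.37 RPMM with v1.5 and 1044 RPMM with NEXTflex, where its reference reached 130070.0 RPMM. Its share was 0.165%, 0.104% and 0.796% (95% exact binomial interval for NEXTflex 0.786% to 0.806%, counting error only). miR-7a-1-5p(+4), by contrast, was at 0.0119% in NEXTflex, below all 6 GAIIx libraries, as was its copy. Of the 5 miR-7 members tested, 2 were higher in share with v1.5, both copies of (+4), and the other 3 did not pass the test. Of all starts 31.0% were higher. Both copies share reads and were listed only through v1.5, so nothing is read from this count.

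**Figure D3:**
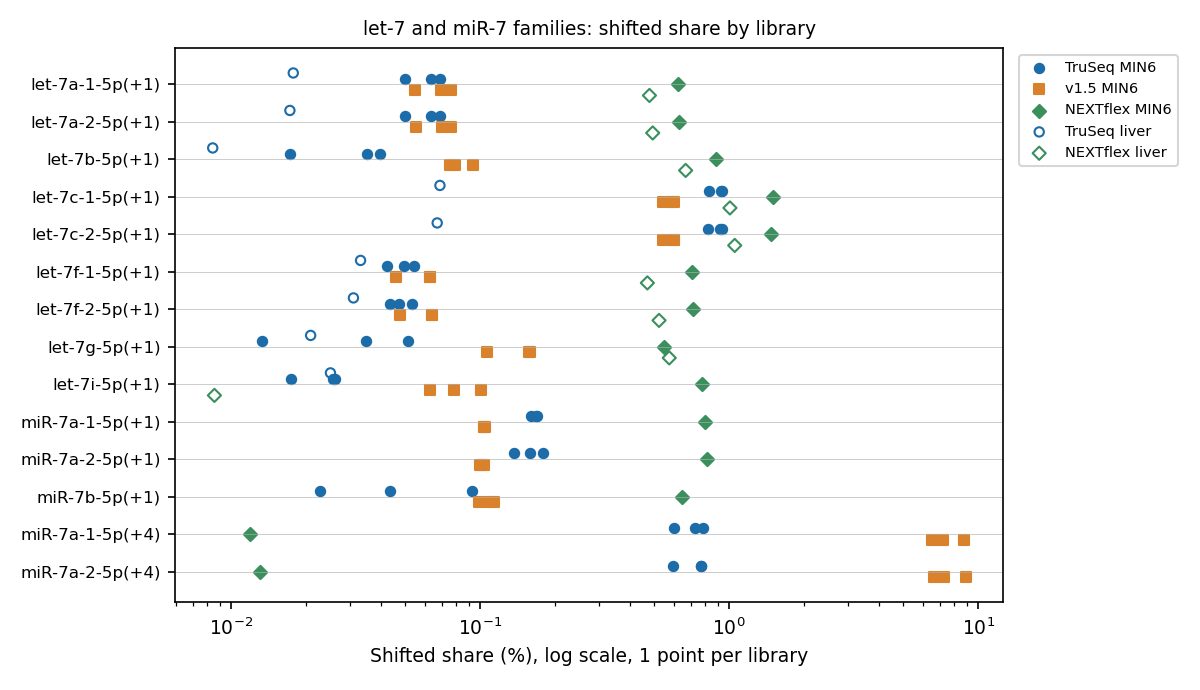
Shifted share (%, log scale, 1 point per library) of the let-7 downstream starts and of the miR-7 downstream starts, by protocol and tissue; liver points (open) are drawn for let-7 only. The NEXTflex MIN6 points of the (+1) starts lie between 0.545% and 1.49%, right of every GAIIx point of the same row, and the NEXTflex points of the (+4) starts are at 0.0119% and 0.0130%, left of the other MIN6 points. Of the (+1) starts only those of let-7c reached 100 RPMM in MIN6 with a protocol other than NEXTflex.

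A shifted start outnumbered its reference, at 10 RPMM or more, in at least 1 library for 34 of the 120 members, 21 of them with a listed reference. In MIN6 8 members did so in all 7 libraries. For 6 of these the reference was too low to be listed, namely miR-5099(-2), whose first base differed from the genome's in 99.7% to 100% of reads in the MIN6 libraries, miR-337-5p(+3), miR-679-5p(-2), miR-345-3p(-1), miR-377-3p(-3) and miR-1306-5p(+2). The 2 with a listed reference were miR-483-3p(+1), from a miRNA that lies in an intron of Igf2, and miR-140-3p(+1), from a miRNA best known in cartilage. miR-483-3p(+1) had 75.9, 75.5 and 75.3% with TruSeq, 62.9, 62.5 and 62.05% with v1.5 and 63.6% with NEXTflex, and its level in NEXTflex was the highest, at 2437 RPMM. miR-140-3p(+1) had 74.8, 71.8 and 73.4%, 59.97, 59.3 and 59.8% and 50.05%, and in liver 67.2% and 45.97%.

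For other members the larger start differed between protocols. miR-101a-3p(-1) led with TruSeq (70.5, 69.9 and 72.1%) and v1.5 (60.1, 60.1 and 61.3%) but not with NEXTflex (44.7%). Its sister miR-101b-3p(-1) led with TruSeq (65.9, 65.4 and 67.6%) but not with v1.5 (34.998, 36.4 and 36.1%) or NEXTflex (31.2%). In liver neither led: miR-101a-3p(-1) was at 31.3% with TruSeq and 16.9% with NEXTflex, and miR-101b-3p(-1) at 30.3% and 15.9%. The share was lower with NEXTflex than with TruSeq in cells and in tissue for both. miR-136-3p(-1), miR-582-3p(+1) and miR-127-5p(+2) led in all 3 TruSeq libraries and in no v1.5 library, and miR-383-5p(-1) and miR-141-5p(-2) led in all 3 v1.5 libraries and in no TruSeq library.

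**Figure D4:**
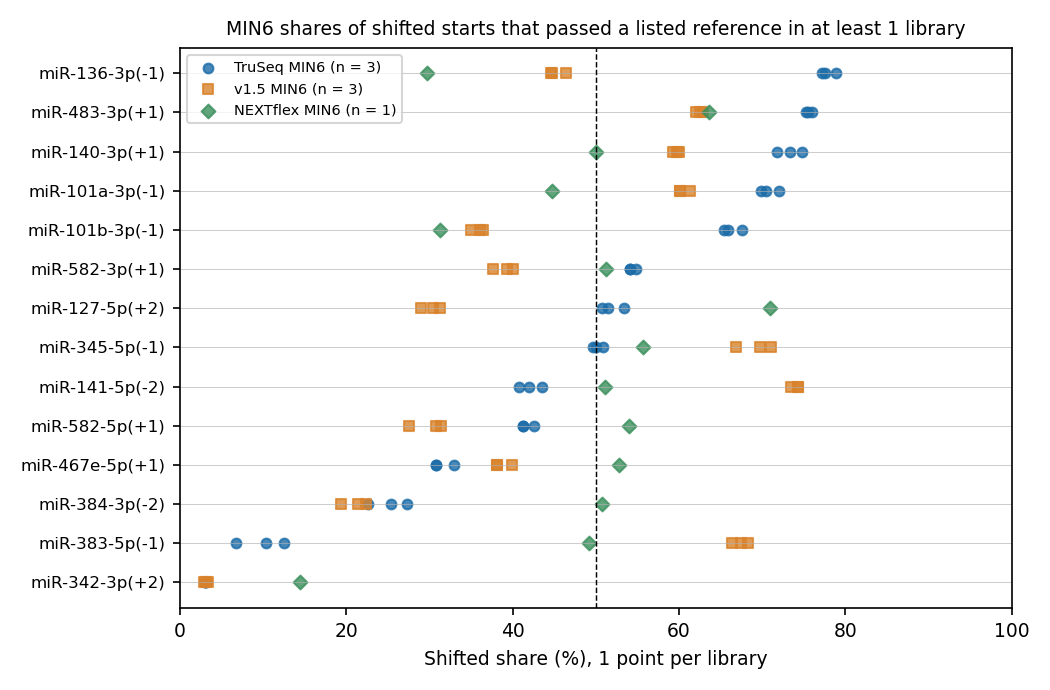
Shifted share (%) in the 7 MIN6 libraries for the 14 MIN6 members that outnumbered a listed reference in at least 1 of the 9 libraries; the dashed line marks equal numbers of shifted and reference reads. Points are libraries; miR-383-5p(-1) runs from 6.73% with TruSeq to 68.3% with v1.5, and miR-342-3p(+2) is below the line in MIN6 and above it only in NEXTflex liver, at 62.8%.

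With 1 NEXTflex library, the comparisons that follow have no replicate check and no test. Against TruSeq in MIN6, the odds of the shifted start (shifted over reference reads, after 1 RPMM was added to each) were over 5-fold higher with NEXTflex for 13 of the 66 members that could be compared and over 5-fold lower for 3, or 24.2% in all. Among all starts 38.8% differed by that much (25.0% higher and 13.8% lower). Of the 13, 9 belonged to the let-7 family, and the others were miR-342-3p(+2), miR-383-5p(-1), miR-182-5p(+1) and miR-141-3p(+1). Of the 13, 11 reached 100 RPMM in MIN6 only with NEXTflex, all but miR-383-5p(-1) and miR-141-3p(+1), so their direction was fixed in part by the listing. The 3 lower ones were both copies of miR-7a-5p(+4) and miR-23b-3p(+1). miR-23b-3p(+1) had 45.8, 49.1 and 49.6 RPMM with TruSeq, 117, 117 and 120.2 RPMM with v1.5 and no read with NEXTflex. The 10242 reads at its pair there allow a share of up to 0.0293% by counting error alone.

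Against v1.5 the odds were over 5-fold higher with NEXTflex for 13 of 68 members and lower for 5, against 34.5% of all starts (21.1% higher and 13.5% lower). Again 12 of the 13 were listed in MIN6 only through NEXTflex and all 5 lower ones only through v1.5. The largest ratio of shares was that of let-7f-1-5p(-1), at 0.0296, 0.0355 and 0.0360% with v1.5 and 0.683% with NEXTflex, 19.1-fold with 1 RPMM added. It was followed by let-7f-1-5p(+1), at 0.0572% and 0.709%, and let-7f-2-5p(+1), at 0.0585% and 0.717%. In the v1.5 libraries 99.5% of the few reads at let-7f-1-5p(-1) had a first base other than the genome's, and in NEXTflex 23.1% did. With 1 RPMM added, and among the members with at least 100 RPMM at the reference on both sides, the smallest ratios of shares were those of miR-7a-1-5p(+4), miR-7a-2-5p(+4) and miR-23b-3p(+1), the last without a read in NEXTflex and at 3.24% ± 0.0410 with v1.5.

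In liver the 10 most abundant shifted starts, by the mean of both libraries, came from miR-192, miR-10a, miR-122, miR-142, miR-101, miR-126 and miR-140. Less RNA per cell and fewer cells of a type cannot be told apart in such bulk tissue. miR-192-5p(+1), from a miRNA enriched in liver, kidney and gut, was at 30149 RPMM with TruSeq and 1108 RPMM with NEXTflex, a share of 26.8% and 15.5%. The summed 5p share of liver with TruSeq was 16.3% over the 24 liver members of that arm and 7.92% without miR-192, against 1.37% and 1.20% with NEXTflex. Without miR-122, whose reference held most of the NEXTflex 5p reads, it was 17.4% and 2.50%. On the 3p arm the 15 liver members summed to 6.25% with TruSeq and 12.6% with NEXTflex, so the summed 5p share was lower and the summed 3p share higher with NEXTflex. The sums in MIN6 cells had this order too, while the 5p medians there, 0.951% with TruSeq and 1.08% with NEXTflex, had the other.

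miR-10a-5p(+1), from a miRNA of the Hox clusters, had 6248 RPMM with TruSeq and 276 RPMM with NEXTflex, with shares of 26.7% and 31.1%. miR-126-3p(+1), from the endothelial miR-126, went the other way in level, from 218 to 1302 RPMM, with shares of 32.04% and 40.9%. Shares of these 2 starts thus differed far less than their levels. miR-142-5p(-2) was at 2995 and 94.2 RPMM, and here the share differed too, 44.2% with TruSeq (95% exact interval 43.9% to 44.5%) and 77.3% with NEXTflex (75.2% to 79.2%). The start 3 nt upstream, miR-142-5p(-3), followed it, at 3.09% and 36.1%, and miR-142-5p(+1) was at 7.72% with TruSeq and had no read with NEXTflex.

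miR-122, the dominant hepatocyte miRNA, had 4 shifted starts, and their shares differed in both directions. miR-122-5p(+1) went from 10.01 RPMM with TruSeq to 4227 RPMM with NEXTflex, or from 0.0580% (95% exact interval 0.0495% to 0.0675%) to 0.788% (0.781% to 0.794%). miR-122-5p(-1) had 0.930% and 0.292%, which became 0.132% and 0.108% over exact alignments, since 86.1% and 67.9% of its reads had another first base than the genome's. miR-122-5p(+4) had 0.144% and 0.0575%, and miR-122-3p(+1) had 44.8% and 49.4%. The (+1) start of the 5p arm thus had the largest difference upward, and in the NEXTflex MIN6 library, where the reference was at 127.7 RPMM, it stood at 0.639% on 0.821 RPMM.

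Over the 34 liver members with at least 100 RPMM at the reference in both libraries, the odds were over 5-fold higher with NEXTflex for 5 and lower for 4, or 26.5%, against 34.8% of all starts (17.4% in each direction). All 5 higher ones reached 100 RPMM in liver only with NEXTflex and all 4 lower ones only with TruSeq, so their directions were fixed in part by the listing and nothing is read from the counts. The higher ones were the (+1) starts miR-21-5p(+1), miR-122-5p(+1), both copies of let-7c-5p(+1) and let-7b-5p(+1). miR-21-5p(+1), from a miRNA induced in injury and tumors, went from 0.0389% to 0.642%, a 14.1-fold ratio of shares with 1 RPMM added. It was also at 0.655% in NEXTflex MIN6, against 0.105, 0.101 and 0.102% with TruSeq and 0.134, 0.194 and 0.179% with v1.5. The lower ones were the (-1) starts miR-148a-3p(-1), miR-92a-1-3p(-1), miR-26a-1-5p(-1) and miR-10a-5p(-1). miR-148a-3p(-1), from a miRNA abundant in hepatocytes, had 1.00% with TruSeq and 0.00227% with NEXTflex. miR-92a-1-3p(-1) had 0.986% and no read, and miR-26a-1-5p(-1) had 1.20% and 0.0651%. Over alignments without a mismatch the TruSeq shares of miR-148a-3p(-1), miR-92a-1-3p(-1) and miR-26a-1-5p(-1) were only 0.1605%, 0.136% and 0.394%. Over those alignments 2 of 31 members were over 5-fold lower with NEXTflex.

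The upstream starts of the TruSeq liver library stood apart from the rest, and the values bear on every upstream share in liver. Over the 16 liver (-1) members other than miR-5115(-1), the median share there was 1.14%, with quartiles at 0.998% and 1.70%, and 13 of the 16 lay between 0.5% and 2%. The corresponding medians were 0.336% to 0.432% in the 3 TruSeq MIN6 libraries and 0.513% in NEXTflex liver. The narrow band was not particular to the members: over 120 liver references with at least 1000 reads at the reference start, the median share at 1 nt upstream was 1.11% in TruSeq liver, with quartiles at 0.989% and 1.39%. When only alignments without a mismatch were counted, the median of the 16 fell to 0.252% in TruSeq liver and to 0.262% in NEXTflex liver. In the 3 TruSeq MIN6 libraries it fell to 0.0346, 0.0561 and 0.0344%, still below TruSeq liver.

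The first base of the reads at these starts often differed from the genome. At the starts 1 nt upstream of all 129 unshifted liver entries, 44.3% of the reads in TruSeq liver and 37.1% in NEXTflex liver had a mismatch at the first base. At the same 129 entries it was 11.9% to 12.03% in the TruSeq MIN6 libraries, 2.93% to 3.49% with v1.5 and 32.4% in NEXTflex MIN6. At the 268 unshifted MIN6 entries it was 3.95% to 4.14% with TruSeq, 2.21% to 2.76% with v1.5 and 23.7% with NEXTflex, and 45.8% and 38.7% in TruSeq and NEXTflex liver. Downstream members had fewer, with medians of at most 0.997% in any library and a highest value of 8.48%, in TruSeq liver. In TruSeq liver 26.8% of the mismatching first bases were not called (N) and 30.4% were T, in NEXTflex MIN6 35.8% were A and in the TruSeq MIN6 libraries 97.1% to 97.2% were C. What share of these first bases was in the RNA was not tested.

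**Figure D5:**
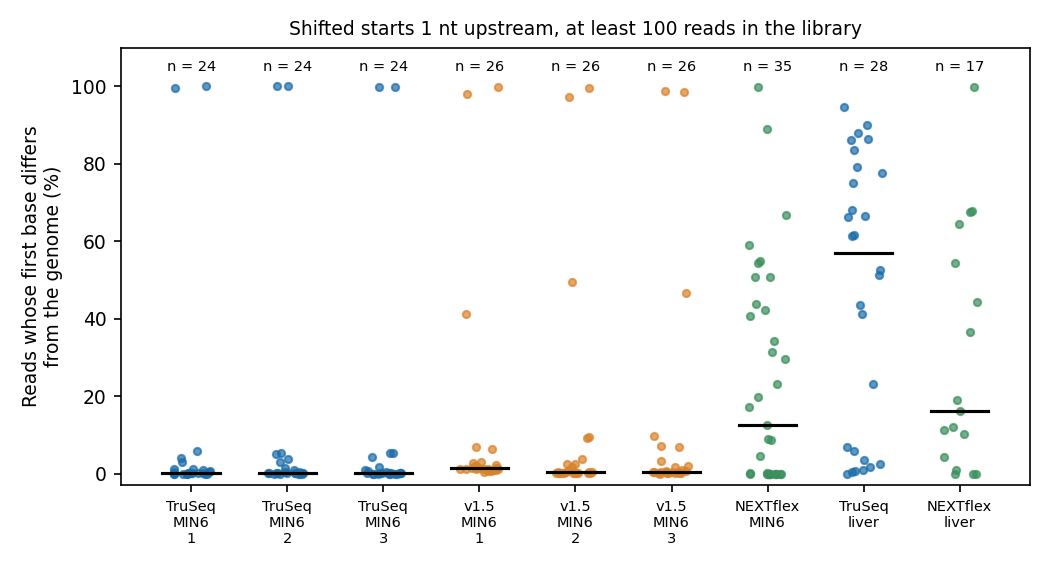
Percentage of reads whose first base differs from the genome at each member 1 nt upstream with at least 100 reads, by library; bars are medians and n is the number of members. The medians are 0.167% to 0.217% in TruSeq MIN6, 0.363% to 1.37% in v1.5 MIN6, 12.5% in NEXTflex MIN6, 57.1% in TruSeq liver and 16.2% in NEXTflex liver.

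Members differed widely in this measure. The upstream starts of miR-101a, miR-101b, miR-136, miR-345, miR-411 and miR-423 had at most 7.02% of reads with a mismatching first base in any group with 100 reads there, the value for miR-101b-3p(-1) in TruSeq liver, against 3.62% for miR-423-3p(-1) in that library. The upstream starts of miR-192 (94.6%), miR-30a-5p (89.98%), let-7b (87.97%) and miR-122 (86.1%) there were mostly mismatched. miR-30a-5p(-1) was mismatched in 99.8% and 99.9% of the reads of the NEXTflex libraries. Counted over exact alignments alone, let-7b-5p(-1) was at 0% in all 6 GAIIx libraries, at 0.119% in NEXTflex MIN6, at 0.0935% in TruSeq liver and at 0.450% in NEXTflex liver. let-7d-5p(-1) hardly changed, with 1.68% and 2.30% in liver against 2.17% and 2.25% over all alignments.

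At the 3′ end, a smaller part of the upstream than of the downstream starts ended where their reference did, in every library. This difference was not tested. The commonest read end at a downstream start was that of its reference for 69.2% to 78.7% of the members with 100 reads, depending on the library. For upstream starts it was 53.8% to 69.4% in 8 libraries and 41.2% in NEXTflex liver.

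The last comparison is of liver with MIN6 within a protocol. Within TruSeq, 38 members could be compared, and the odds were over 5-fold higher in liver for 6 and lower for 6, or 31.6%, against 34.7% of all starts (24.8% higher and 9.9% lower). Over alignments without a mismatch it was higher for 3 and lower for 5 of 34 members, and for 11 and 9 of 71 starts. All 6 higher ones over all alignments were (-1) starts, those of let-7b, let-7c-2, let-7f-1, miR-148a, miR-30a-5p and miR-192, members whose reads in TruSeq liver were mostly mismatched at the first base. The last 3 of them were listed only through TruSeq liver. The 6 lower ones were both copies of miR-103-3p(+2), miR-27b-3p(+3), both copies of let-7c-5p(+1) and miR-101a-3p(-1). Of these miR-27b-3p(+3) was listed only through TruSeq MIN6. Within NEXTflex, 51 members could be compared, with 3 higher and 6 lower in liver, or 17.6%, against 26.7% of all starts (9.63% higher, and 23 of 135 lower). The 3 higher ones were miR-23b-3p(+1), at 15.7% in liver and with no read in MIN6, and both copies of miR-7a-5p(+4). The latter had no read in liver, where the reference was at 372 RPMM, so their ratio comes from the 1 RPMM that was added and shows no higher share. Among the 6 lower ones miR-122-5p(+4) likewise had no read in MIN6, and the others were miR-148a-3p(-1), miR-103-1-3p(+2), miR-29a-3p(-1), let-7i-5p(+1), which was listed only through NEXTflex MIN6, and miR-26a-1-5p(-1). miR-148a-3p(-1) was higher in liver within TruSeq and lower within NEXTflex. None of these comparisons has replicates in liver, and all are of 1 mouse.

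The remaining liver members were entries without an arm in their name. miR-5115 had 6 upstream starts, from 1 to 8 nt, at 114 to 458 RPMM in TruSeq liver and 37.8 to 55.4 RPMM in NEXTflex liver. At miR-5115(-8) 99.9% and 100% of these reads had a first base other than the genome's. No other arm or entry had more than 3 shifted starts. miR-5105(+7) and (+8) and miR-5109(+5) lay far downstream of references that were not listed. miR-5099(-2) held between 98.9% and 100% of its pair in all 8 libraries with reads there, on reads that in at least 99.4% of cases had another first base than the genome's.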

How the data were processed

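Small RNA was sequenced in 9 mouse libraries, 7 of MIN6 cells and 2 of liver. The authors trimmed adapters with cutadapt, removed 4 further bases from each end of NEXTflex reads, and aligned to mm9 with Bowtie, per the labels and the study's methods. They deposited alignments in which a read with several best positions is split equally among them, so the values summed per 5′ start are expected counts. These sums were rounded to whole numbers for the tests; an alternative kept only alignments whose deposited count was already whole. Levels are reads per 1000000 reads mapped by the study (RPMM).

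The 5′ start of each listed entry was located from its deposited level in all libraries. Shifted shares were tested with edgeR 4.0.16 (quasi-likelihood, R 4.3.3) with the log of the pair total as offset, over all starts within 8 nt of a MIN6 reference with a mean of at least 10 shifted and 100 pair reads. Levels were tested over all 358 MIN6 entries. P-values were adjusted by Benjamini and Hochberg over all features of a fit. DESeq2 1.42.0 and limma 3.58.1 were alternatives, with other scalings, filters, exact alignments, read lengths, merged copies and left-out libraries. Single libraries were compared by odds after 1 RPMM was added, with a limit of 5-fold and no test. Where no read was seen, 3 counts were taken as the floor. Intervals are exact binomial and, like the floor, cover counting error only. On simulated data with 409 starts the share test recovered 82.5% of starts changed by 1 and 99.2% of those changed by 2 on the log2 scale. The simulation used a fixed spread between libraries that was not taken from these data. It held only starts of low share, with a higher minimum of reads than the filter's. These rates therefore do not carry over to all members.

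The members and lists were chosen with earlier results of these data known. The members named are the 10 most abundant of each cell or tissue, the 5 with the largest called change of share in each direction, the 3 with the largest ratio of shares in each direction for NEXTflex against TruSeq in liver and against v1.5 in MIN6, those above their reference in a library, and the let-7, miR-7 and miR-122 lists. Other members named were chosen after their values were seen. Sequences are RefSeq hairpin stretches (GRCm38.p6) from the start to the commonest read length.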

Additional observations from a re-analysis of the deposited data

Results flagged for a closer look

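For 7 members the odds of the shifted start differed between NEXTflex and TruSeq in opposite directions in liver and in MIN6 cells. Each rests on 1 liver library per protocol and 1 NEXTflex MIN6 library set against each of the 3 TruSeq MIN6 libraries, and the difference between cells and tissue was not tested. In 3 downstream starts the odds were higher with NEXTflex in liver and lower in MIN6: 4.75-fold against 0.405 to 0.450 for miR-103-2-3p(+2), 4.34-fold against 0.353 to 0.368 for miR-22-3p(+1), and 3.91-fold against 0.0843 to 0.0955 for miR-23b-3p(+1). The last 2 starts had no read in NEXTflex MIN6, so their MIN6 ratios rest on the 1 RPMM that was added. Against the floor of 3 counts, which covers counting error only, their TruSeq MIN6 shares were at least 23.3-fold and 91.6-fold higher. Over 225 MIN6 references with at least 1000 reads in that NEXTflex library, the lower quartile of the share at 1 nt downstream was 0. Shares of 0 were thus common there, and these folds are not firm bounds. In 4 upstream starts the odds with NEXTflex were lower in liver and higher in MIN6. The ratio was 0.308 in liver against 10.1 to 10.5 in MIN6 for let-7f-1-5p(-1), and 0.413 against 2.12 to 3.10 for miR-21-5p(-1). It was 0.275 against 12.4 to 22.1 for miR-30a-5p(-1), and 0.0344 against 7.40 to 7.90 for miR-148a-3p(-1). In TruSeq liver 66.3%, 75.04%, 89.98% and 83.7% of the reads at these 4 starts had a first base other than the genome's, and in NEXTflex MIN6 23.1%, 59.2%, 99.8% and 50.9%. Over alignments without a mismatch the opposite directions were not seen for miR-30a-5p(-1), whose share was 0.00192% with NEXTflex against 0.0369% to 0.0734% with TruSeq in MIN6, and 0 against 0.0916% in liver. For miR-21-5p(-1) these shares were 0.601% against 0.369% to 0.624% in MIN6 and 0.273% against 0.286% in liver. For let-7f-1-5p(-1) and miR-148a-3p(-1) the opposite directions were still present, with 0.458% against 0 and 0.288% against 0.0314% to 0.0387% in MIN6, and 0.160% against 0.270% and 0.00249% against 0.1605% in liver.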

How the results depend on the processing

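Between 58 and 65 of the members were called for share under the alternatives with 84 members tested, against 64, and 46 of 83 with whole-number counts, that is, with alignments whose deposited count was not split among positions. Of the single-member share results, 696 kept their side and direction, 12 passed and 25 lost the threshold and 1 reversed, let-7f-1-5p(-1), at 2.15 with whole-number counts. Over all starts, 280 were higher and 256 lower of 2138 with no filter, and 129 higher and 112 lower of 518 with whole-number counts. Over all starts with no filter, 1050 changed in level, 688 higher and 362 lower. The level reversed for miR-29a-3p(-1), at -0.40 with TMM and -0.45 with DESeq2 size factors, for miR-582-5p(+1), at -0.11 and -0.17, and with DESeq2 size factors for miR-377-3p(-3), at -0.0515, and let-7i-5p(+1), at -0.0601. With exact alignments it reversed for miR-26a-2-5p(-1), at 0.21, miR-5099(-2), at 2.99, and let-7c-2-5p(-1), at -0.0374.

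Summed shares depended on the weighting, given here in the order TruSeq, v1.5 and NEXTflex MIN6, TruSeq and NEXTflex liver. Medians over members were 0.951%, 1.67%, 1.08%, 1.11% and 0.655% on the 5p arm and 5.93%, 6.40%, 6.86%, 6.38% and 7.69% on the 3p arm. With exact alignments the sums were 2.88%, 1.74%, 1.25%, 15.05% and 1.20% on the 5p arm and 3.45%, 5.72%, 7.79%, 4.86% and 9.29% on the 3p arm. With copies merged the 5p sums were 3.40%, 2.07%, 1.49%, 17.5% and 1.38%, and the 3p sums of v1.5 and NEXTflex MIN6 were 6.07% and 8.28%. With reads of 18 to 25 nt the 5p sums of TruSeq and NEXTflex MIN6 were 3.06% and 1.43%. Without miR-375 the MIN6 3p sums were 3.56%, 6.65% and 12.2%, and without miR-192, chosen after seeing the data, the liver 5p sums were 7.92% and 1.20%. Without miR-122, also chosen then, they were 17.4% and 2.50%, and the 3p sums 6.12% and 12.4%. With a limit of 2-fold, 23 members were higher and 13 lower for NEXTflex against TruSeq in MIN6, 29 and 9 against v1.5, and 13 were lower in liver. For liver against MIN6 it gave 10 higher within TruSeq, and 6 higher and 15 lower within NEXTflex, and exact alignments gave 3 higher within TruSeq. With 0.1 RPMM added 5 were lower against TruSeq in MIN6, and with exact alignments 2 were lower in liver.

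Replicate numbers were not taken to pair the libraries, since the deviations of same-numbered libraries did not all correlate above 0.1. Their correlations were 0.0550, -0.0629 and 0.0437 for share. For level they were 0.0926, 0.290 and 0.236, and there every library correlated best with its own number. With the replicate block 65 members were called for share and 81 for level. Single libraries of NEXTflex and liver limit every comparison with them to counting error.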
